A study of Homo sapiens with 8 samples.

Results

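The genes described here are 10 serpins of clades A and B: SERPINA1, SERPINA3, SERPINA5, SERPINB1, SERPINB2, SERPINB3, SERPINB5, SERPINB6, SERPINB8 and SERPINB9. They were found as every probe whose accession in the array files carries one of these symbols, which gave 18 of the 41000 probes and 10 of the 17240 genes with a symbol on the array. The set was chosen on the measured log2 ratios: SERPINA3 was taken in because it had been seen to move in opposite ways in the arrays of the study, so its ratios are given as a description and are not evidence of that pattern. The arrays held RNA of CAPAN-2 cells, an established line of human pancreatic adenocarcinoma. In the first experiment, 4 stable clones transfected with a puromycin-selected pGeneClip plasmid encoding a short hairpin RNA against ErbB2 (labelled EV7, EV12, EV9 and EV18 on arrays 1 to 4) were each hybridised against a pool of 4 empty-vector clones called NT. In the second, 4 RNAs labelled as MUC4 knockdown, made by retroviral pRetroSuper infection and G418 selection, were each hybridised against RNA labelled mock, by the methods a pool of 4 clones carrying the empty retroviral vector. The labels do not name the MUC4 clones. Every knockdown sample is thus by the methods a single clone, each pool counts as 1 control sample, and untreated CAPAN-2 cells are not part of either comparison.

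Serpins are protease inhibitors that trap their target when it cuts an exposed loop of the inhibitor, after which both proteins are locked in an inactive complex. Clade A members are secreted, and several circulate in plasma and belong to the acute phase response of the liver. Clade B members lack a classical signal peptide and act mostly inside cells, where they shield the cell from its own or from taken-up proteases, and some of them are typical of squamous and other epithelia. In the human genome the clade A members lie together on chromosome 14, SERPINB1, SERPINB6 and SERPINB9 on chromosome 6, and SERPINB2, SERPINB3, SERPINB5 and SERPINB8 on chromosome 18.

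The targeted genes were read first. The brightest ERBB2 probe gave log2 ratios of ErbB2-KD over NT of -0.58, -0.32, -0.33 and -0.38, lower on 4 of 4 arrays (mean -0.40 ± 0.12, SD, n = 4, limma adjusted p = 0.145). The other ERBB2 probe gave a mean of 0.04. In the second experiment all 4 MUC4 probes had a mean above 0 in the RNA labelled MUC4-KD, from 0.27 for the brightest (limma adjusted p = 0.167) to 1.84 ± 0.57 (SD, n = 4, limma adjusted p = 0.00803), and that last probe was higher in the labelled knockdown on 4 of 4 arrays. The MUC4 signal therefore goes against the labels, and the 2 RNAs are called the RNA labelled MUC4-KD and the RNA labelled Mock throughout. Signed values of this experiment are given as labelled; the study's own gene list runs in the opposite direction.

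How much each channel varied from array to array also differed between the experiments, over all probes tested. In the ErbB2 experiment the knockdown channel varied more than the NT channel for 81.2% of 23817 probes, with median SDs between arrays of 0.34 and 0.17 on the log2 scale. Array 2 there, with clone EV12, was the brightest, at median spot signals of 593 in Cy5 and 248 in Cy3. The other ErbB2-KD arrays had 158.25 to 201 and 100 to 116. Even in the NT channel array 2 differed past 2-fold from arrays 1, 3 and 4 for 1105, 1695 and 1174 probes. The other pairs differed there for 18 to 116. What is particular to EV12 and to its array cannot be told apart. In the MUC4 experiment the channel labelled Mock varied more for 73.0% of 24992 probes, with median SDs of 0.25 in labelled Mock and 0.15 in labelled MUC4-KD. Arrays 1 and 3 of this experiment, on the same slide with the dyes reversed, differed little in labelled Mock, with 53 probes past 2-fold. Array 4 differed there from arrays 1, 2 and 3 for 2329, 2194 and 2460 probes. Array 2 differed from arrays 1 and 3 for 864 and 883. In labelled MUC4-KD arrays 1 and 3 differed for 330 probes and arrays 1 and 2 for 115. The NT pool on ErbB2-KD arrays 1 and 3, also on 1 slide with the dyes reversed, differed for 18. Whether the 4 arrays hold 4 different samples in each channel cannot be told apart from these values, and the n of 4 is as labelled. The ductal markers fixed for this line were present: 6 of 8 were well above background in all 16 channels and the lowest in 14. Of the fibroblast markers 3 of 4 on the array were above background in none, whereas CD14, on the leukocyte list, was above background in 16. Of the hepatocyte markers, from the organ that is the main source of clade A serpins in the body, 2 of 4 were above background in none and the highest in 5, and the acinar markers were in 4 to 6. The part of these markers in the results was not tested.

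Of the 10 serpins, 8 passed the filter on dim probes in each experiment, that is, were well above background on all 4 arrays in at least 1 of the 2 RNAs. SERPINB3 and SERPINB9 did not pass in ErbB2-KD, and SERPINA5 and SERPINB9 did not in the MUC4 experiment. Of the 8, 6 were above background in both RNAs on all arrays in each experiment. SERPINB2 in ErbB2-KD and SERPINA3 and SERPINB3 in labelled MUC4-KD passed only through the RNA in which they were higher, SERPINA5 in ErbB2-KD only through NT. In ErbB2-KD, 1 of the 8 tested was called lower at an adjusted p under 0.05 (SERPINA3) and 0 higher, where limma called 1.48% of all 23817 probes tested, 0.920% lower and 0.563% higher. At an unadjusted p under 0.05 limma gave 2 members higher and 2 lower there, beside 7.48% and 10.6% of all probes tested. The methods' t-test, run here on the ratios, gave 1 member and 3173 probes at an unadjusted p under 0.05. After the adjustment, which was added here, it called 0 of either. In the RNA labelled MUC4-KD, 3 of the 8 were called higher (SERPINA3, SERPINB2 and SERPINB5) and 2 lower (SERPINA1 and SERPINB8), beside 20.5% of all 24992 probes, 12.0% higher and 8.50% lower. With the filter applied in both RNAs SERPINA3 was not tested there and the other 4 members were called. Among the tested members 1 was higher and 2 were lower on all 4 ErbB2-KD arrays, beside 12.1% and 15.3% of all probes tested, and 4 were higher and 3 lower on all 4 MUC4 arrays, beside 27.4% and 22.1%. The calls on the members stand as a description, since the set was chosen with results of both contrasts known. Leaving out array 1, 2 or 3 of the MUC4 experiment, or averaging arrays 1 and 3, left 0 of these 5 calls, and leaving out ErbB2-KD array 1 or 3 ended the SERPINA3 call there.

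**Figure D1:**
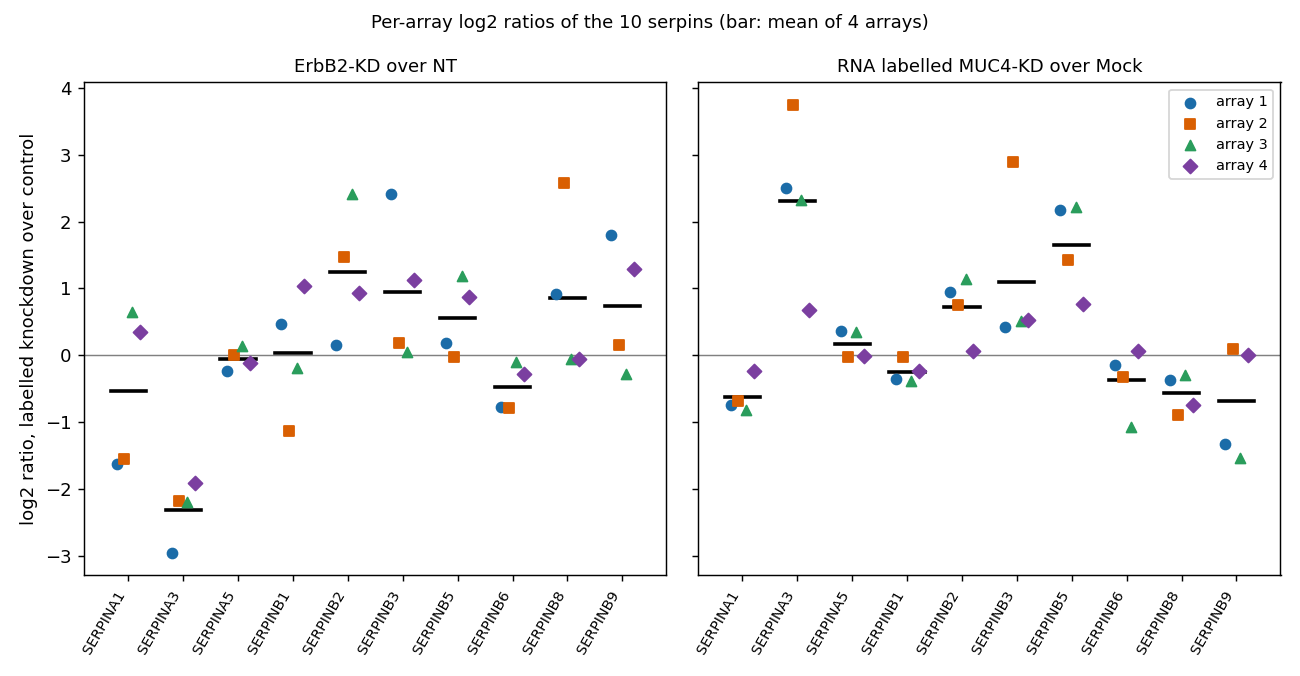
Log2 ratios of the labelled knockdown over its control (vertical axis) for the brightest probe of each of the 10 serpins, with 1 point per array and a bar at the mean of 4 arrays, ErbB2-KD over NT on the left and RNA labelled MUC4-KD over Mock on the right. SERPINA3 lies between -2.96 and -1.91 on the left and between 0.68 and 3.75 on the right.

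SERPINA3, or alpha-1-antichymotrypsin, is a secreted acute phase protein that inhibits cathepsin G and chymase. In ErbB2-KD its log2 ratios were -2.96, -2.18, -2.19 and -1.91 (mean -2.31 ± 0.45, SD, n = 4), a 4.96-fold lower signal. All 4 clones were low: the normalised log2 level was 7.09, 7.07, 7.86 and 7.80 in the clones against 10.05, 9.25, 10.05 and 9.71 in the NT pool, and the 2 sets of levels did not overlap. In such bulk RNA, fewer cells with a transcript and less of it per cell cannot be told apart. The RNA labelled MUC4-KD showed the other direction, with ratios of 2.51, 3.75, 2.32 and 0.68 (mean 2.31 ± 1.26, SD, n = 4). There the level was 10.52, 10.62, 10.23 and 9.93 in labelled MUC4-KD and 8.01, 6.87, 7.91 and 9.25 in labelled Mock. The labelled knockdown spanned 0.69 across arrays and labelled Mock 2.37, with array 2 the lowest and array 4 the highest, and the probe was well above background in labelled Mock on 3 of 4 arrays.

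A second SERPINA3 probe of the same transcript moved the same way with smaller ratios. It gave -1.56, -0.54, -1.07 and -0.77 in ErbB2-KD (mean -0.99 ± 0.44, SD, n = 4), which was not called, and 1.42, 1.96, 1.27 and 0.13 in the RNA labelled MUC4-KD (mean 1.20 ± 0.77, SD, n = 4). The arrays of both experiments shared 3 slides. On slide 1 the brightest probe read -2.96 and -2.19 on the ErbB2-KD arrays and 3.75 on the MUC4 array, on slide 2 it read -2.18 and 0.68, and on slide 3 -1.91 against 2.51 and 2.32. Since all 4 arrays of each experiment had the same sign, opposite signs on each slide and in each dye follow from that and test nothing further. Means by dye of the knockdown were -2.57 in Cy5 and -2.05 in Cy3 for ErbB2-KD. For the RNA labelled MUC4-KD they were 1.50 in Cy5 and 3.13 in Cy3. The log ratios that Feature Extraction, the scanner software, wrote itself gave larger means of -3.41 and 3.60.

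As the gene whose ratios went both ways, SERPINA3 is shown with the 250 bases before its start, from RefSeq on GRCh38.p14, chr14:94612141-94612390, plus strand. A search on both strands for the STAT letters TTCNNNGAA, the AP-1 letters TGANTCA, where N is any base, and the NF-kB motif found none of these here. No base is therefore in capitals.
SERPINA3: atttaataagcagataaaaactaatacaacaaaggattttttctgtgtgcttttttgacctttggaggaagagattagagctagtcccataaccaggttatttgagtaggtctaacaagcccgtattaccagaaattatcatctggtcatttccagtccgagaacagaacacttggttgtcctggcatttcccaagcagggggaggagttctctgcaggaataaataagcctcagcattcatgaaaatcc

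SERPINA1 is alpha-1-antitrypsin, the main plasma inhibitor of neutrophil elastase. It split the ErbB2-KD clones into 2 pairs, with ratios of -1.63 and -1.55 in EV7 and EV12 and of 0.65 and 0.35 in EV9 and EV18 (mean -0.54 ± 1.21, SD, n = 4). Its level was 8.15 and 7.30 in the first pair and 10.35 and 10.04 in the second, against 9.77, 8.85, 9.70 and 9.69 in NT. The first pair carried the knockdown RNA in Cy5 and the second in Cy3, so clone and dye cannot be told apart here. Labelled MUC4-KD gave -0.75, -0.69, -0.82 and -0.24 (mean -0.63 ± 0.26, SD, n = 4), a smaller and more even difference that was lower on 4 of 4 arrays. There the labelled knockdown lay between 8.52 and 8.69 and labelled Mock between 8.76 and 9.41, without overlap.

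SERPINA5, the protein C inhibitor, was dim. In the ErbB2 experiment it was well above background in 3 of 4 clones and on 4 of 4 arrays in NT. Its ratios in ErbB2-KD were -0.24, 0.01, 0.14 and -0.12 (mean -0.06), and levels in the clones and in NT overlapped. In labelled Mock it was not well above background on any array, and in labelled MUC4-KD it was on 2 of 4. The ratios there were 0.37, -0.03, 0.35 and -0.01, and the mean over 4 arrays came to 1.13-fold higher in labelled MUC4-KD. Such a fold takes the brighter RNA over all 4 arrays, also where it was near background. The other RNA was raised to the lowest signal that still counted as measured where it lay below that. The fold is thus no lower bound for a single array, comes from the normalised levels of each channel and can carry dye bias.

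**Figure D2:**
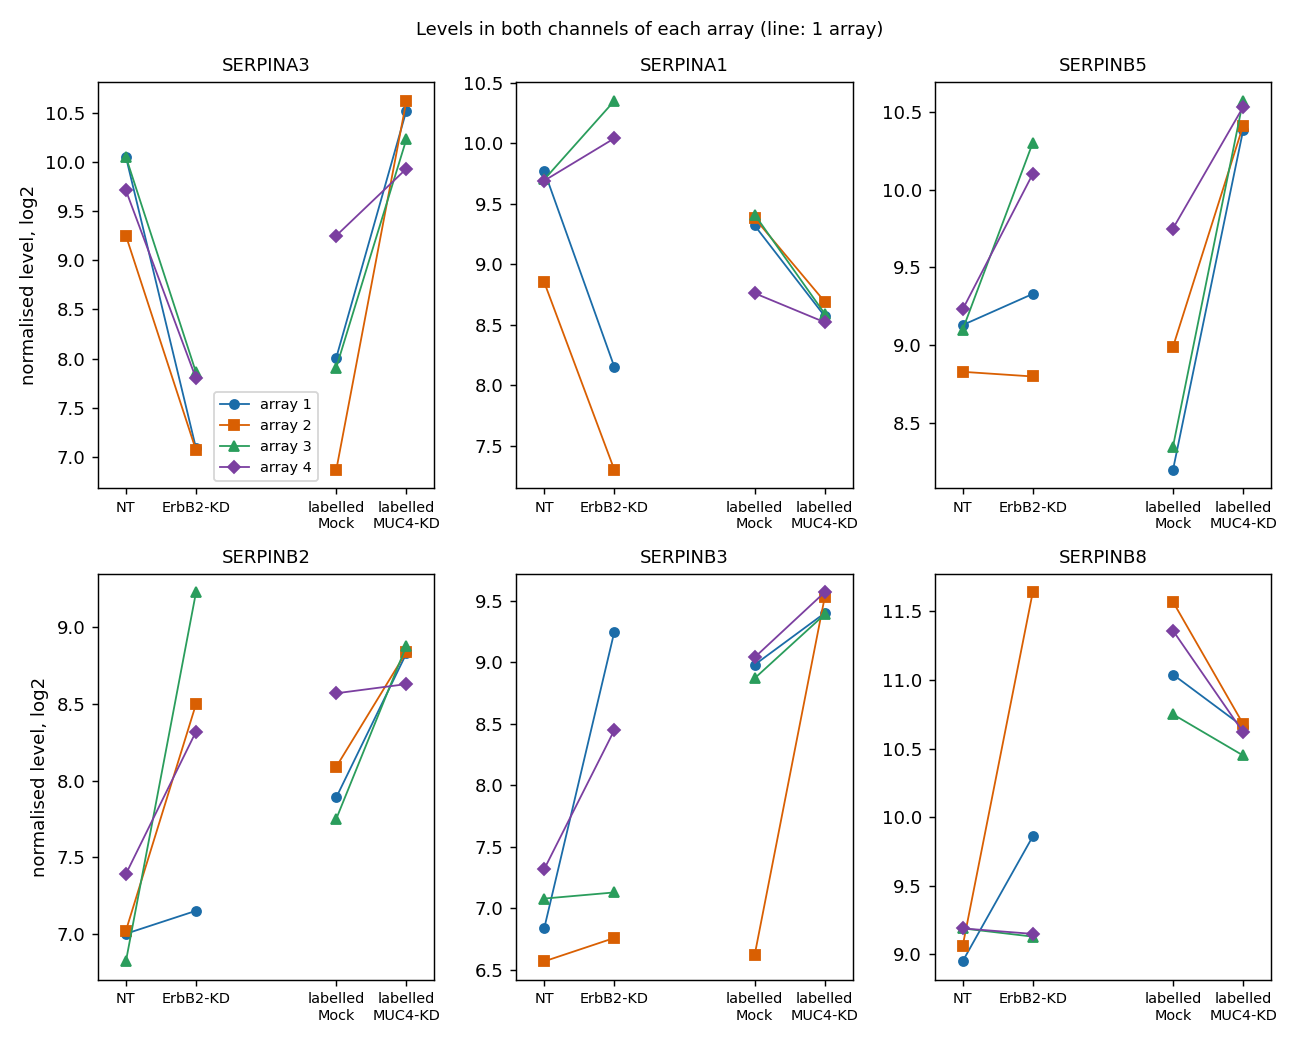
Normalised log2 level (vertical axis) in the control and the knockdown channel of each array for 6 serpins, with 1 line per array. For SERPINA3 the ErbB2-KD clones lie at 7.07 to 7.86 below the NT pool, and for SERPINB5 labelled MUC4-KD lies at 10.38 to 10.57 while labelled Mock spans 8.20 to 9.75.

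Among the clade B serpins, SERPINB5 had the largest mean ratio in the second experiment. SERPINB5 is maspin, an epithelial serpin that does not inhibit proteases in the usual way and is known as a tumour suppressor in breast. Its ratios in labelled MUC4-KD were 2.18, 1.42, 2.22 and 0.77 (mean 1.65 ± 0.69, SD, n = 4), a 3.14-fold higher signal. Labelled MUC4-KD was uniform at 10.38, 10.41, 10.57 and 10.53, and labelled Mock was at 8.20, 8.99, 8.35 and 9.75, so that all levels of the first lay above all of the second. The other SERPINB5 probe averaged 0.80 ± 0.58 (SD, n = 4), higher on 4 of 4 arrays and not called. In ErbB2-KD the ratios were 0.19, -0.03, 1.19 and 0.87 (mean 0.56 ± 0.57, SD, n = 4). Clones EV9 and EV18 at 10.30 and 10.10 stood above the NT range of 8.83 to 9.23, and EV7 and EV12 at 9.33 and 8.80 were near it. Here too the pairs differ in dye, with means of 0.08 with the knockdown in Cy5 and 1.03 in Cy3, and clone and dye cannot be told apart.

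SERPINB2 is plasminogen activator inhibitor 2, which acts on urokinase. Ratios in ErbB2-KD were 0.15, 1.47, 2.41 and 0.93 (mean 1.24 ± 0.95, SD, n = 4), higher on 4 of 4 arrays but not called. Its level was 7.15, 8.50, 9.23 and 8.32 in the clones and between 6.82 and 7.39 in the NT pool, where the probe was well above background on 1 of 4 arrays. EV7 alone overlapped the pool. In labelled MUC4-KD the ratios were 0.94, 0.76, 1.14 and 0.06 (mean 0.72 ± 0.47, SD, n = 4), and the level ran from 8.63 to 8.88 against 7.75 to 8.57 in labelled Mock. A dimmer SERPINB2 probe averaged 0.12 and 0.18 in the 2 experiments and was tested in neither.

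The AP-1 letters TGANTCA were found before the starts of SERPINB2, SERPINB5 and SERPINB8, 3 of the 10 members, and in 6.57% of all 35116 RefSeq windows of the same 250 bases. TTCNNNGAA was found in SERPINA5, SERPINB1 and SERPINB8, also 3 of 10 and also 6.57% of all windows, and the NF-kB motif in 0 members and 5.21%. Of the members with the AP-1 letters, SERPINB5 and SERPINB2 were called higher in labelled MUC4-KD and SERPINB8 was called lower (mean -0.57). SERPINB8 carries the letters at position -185 from the start and again nearer to it. Whether these letters go with the direction was not tested. SERPINB5 and SERPINB2 are shown with TGANTCA in capitals, for chr18:63476708-63476957 and chr18:63887455-63887704, plus strand, GRCh38.p14. The letters begin at positions -146 and -102 from the start.
SERPINB5: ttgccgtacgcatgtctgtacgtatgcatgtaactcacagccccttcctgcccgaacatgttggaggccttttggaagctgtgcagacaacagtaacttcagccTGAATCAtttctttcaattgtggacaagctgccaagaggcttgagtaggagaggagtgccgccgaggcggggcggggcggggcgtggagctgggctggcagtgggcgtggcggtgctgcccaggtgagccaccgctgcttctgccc
SERPINB2: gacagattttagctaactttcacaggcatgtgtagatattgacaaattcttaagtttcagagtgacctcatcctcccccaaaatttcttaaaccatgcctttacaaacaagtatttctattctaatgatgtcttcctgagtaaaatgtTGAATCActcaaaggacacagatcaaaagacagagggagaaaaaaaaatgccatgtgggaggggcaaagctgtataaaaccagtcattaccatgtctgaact

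SERPINB3, squamous cell carcinoma antigen 1, inhibits lysosomal cysteine proteases. It nearly equals SERPINB4 in sequence, and which of both is measured is uncertain. ErbB2-KD clones gave 2.41, 0.19, 0.05 and 1.13 (mean 0.95 ± 1.09, SD, n = 4), with levels of 9.25 in EV7 and 8.45 in EV18 and of 6.76 and 7.13 in EV12 and EV9. The pool was not well above background on any array and the clones were on 2 of 4. Taken as for SERPINA5, the mean over 4 arrays came to 1.92-fold higher in the clones, which is no lower bound for EV12 and EV9. The SERPINB4 probe followed the same order, with 2.34, 0.12, -0.02 and 1.00. In labelled MUC4-KD the SERPINB3 ratios were 0.42, 2.90, 0.52 and 0.53 (mean 1.09 ± 1.21, SD, n = 4, and 0.49 without array 2). The level was 9.39 to 9.57 in labelled MUC4-KD on every array, and labelled Mock read 8.98, 6.62, 8.87 and 9.04, so that array 2 stood apart through labelled Mock.

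SERPINB9, the inhibitor of granzyme B, was likewise uneven between clones. Its ratios in ErbB2-KD were 1.80, 0.16, -0.28 and 1.29 (mean 0.74 ± 0.97, SD, n = 4), highest in EV7 and EV18, the same pair as for SERPINB3. These clones had levels of 8.79 and 8.88, and EV12 and EV9 had 6.70 and 7.11. In the MUC4 experiment the ratios were -1.33, 0.09, -1.54 and 0.01 (mean -0.69 ± 0.86, SD, n = 4). Labelled MUC4-KD was not well above background on any array, and labelled Mock was on 2, with levels of 8.07 and 8.04 on arrays 1 and 3 and 6.58 and 6.60 on arrays 2 and 4. Taken as for SERPINA5, the mean over 4 arrays came to 1.43-fold higher in labelled Mock, which is no lower bound for arrays 2 and 4. The other SERPINB9 probes had means between -0.05 and 0.19 and were tested in neither experiment.

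SERPINB8 inhibits furin and related enzymes. It was higher in 2 ErbB2-KD clones, with ratios of 0.92 in EV7 and 2.58 in EV12 and of -0.05 in both others (mean 0.85 ± 1.24, SD, n = 4). EV12 stood at a level of 11.64, against 8.95 to 9.19 in NT. It was on array 2, whose NT channel also differed most from the other arrays over all probes, so clone and array cannot be told apart. EV7 and EV12 carried the knockdown RNA in Cy5 and the others in Cy3 (means of 1.75 and -0.05), so clone and dye cannot be told apart here either. In labelled MUC4-KD it was lower on 4 of 4 arrays, at -0.37, -0.89, -0.30 and -0.74 (mean -0.57 ± 0.29, SD, n = 4), and levels of 10.45 to 10.68 lay below the 10.75 to 11.57 of labelled Mock. The second SERPINB8 probe averaged 0.29 ± 0.54 in ErbB2-KD and -0.59 ± 0.41 in labelled MUC4-KD (SD, n = 4), and neither was called.

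SERPINB1 and SERPINB6 were well above background in every channel. SERPINB1, the leukocyte elastase inhibitor, varied between ErbB2-KD clones without a common direction, at 0.47, -1.13, -0.19 and 1.03 (mean 0.04 ± 0.93, SD, n = 4). The clones spanned 13.82 to 15.61 around an NT range of 14.58 to 14.95. Labelled MUC4-KD gave -0.36, -0.02, -0.39 and -0.24 (mean -0.25 ± 0.17, SD, n = 4), lower on 4 of 4 arrays and not called. SERPINB6, an inhibitor of cathepsin G and trypsin-like proteases, was lower in all ErbB2-KD clones, at -0.77, -0.79, -0.10 and -0.28 (mean -0.48 ± 0.35, SD, n = 4), with means of -0.78 in Cy5 and -0.19 in Cy3, and was not called. Its clone levels, at most 11.49, did not overlap the NT levels of 11.59 to 12.05. In labelled MUC4-KD it gave -0.15, -0.33, -1.07 and 0.06 (mean -0.37), with overlapping levels, and its second probe averaged -0.45 and -0.44 in the 2 experiments.

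Across the set, then, levels of the clones and of NT did not overlap for 2 of 10 serpins in the ErbB2 experiment, SERPINA3 and SERPINB6, beside 10.5% of all probes tested. Labelled MUC4-KD and labelled Mock did not overlap for 6 of 10, SERPINA1, SERPINA3, SERPINB2, SERPINB3, SERPINB5 and SERPINB8, beside 29.0% of all probes tested. The tested serpins had a larger median spread between arrays than all probes together. This too is a description, since the set was chosen with results of both contrasts known. The median SD of the ratio over the 8 tested members was 0.75 in ErbB2-KD, beside 0.30 over all probes tested, and 0.48 beside 0.28 in labelled MUC4-KD. The wider range between arrays lay in the knockdown channel for 9 of 10 members in the ErbB2 experiment, the exception being SERPINA3, beside 81.7% of all probes tested. It lay in the channel labelled Mock for 9 of 10 in the MUC4 experiment, the exception being SERPINA5, beside 73.8%. These shares are near those of all probes. In the ErbB2 experiment SERPINA1 spanned 3.04 between clones and 0.92 in NT, and SERPINB8 spanned 2.50 and 0.25. In the MUC4 experiment SERPINB3 spanned 0.18 in labelled MUC4-KD and 2.42 in labelled Mock, and SERPINB5 spanned 0.19 and 1.56.

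**Figure D3:**
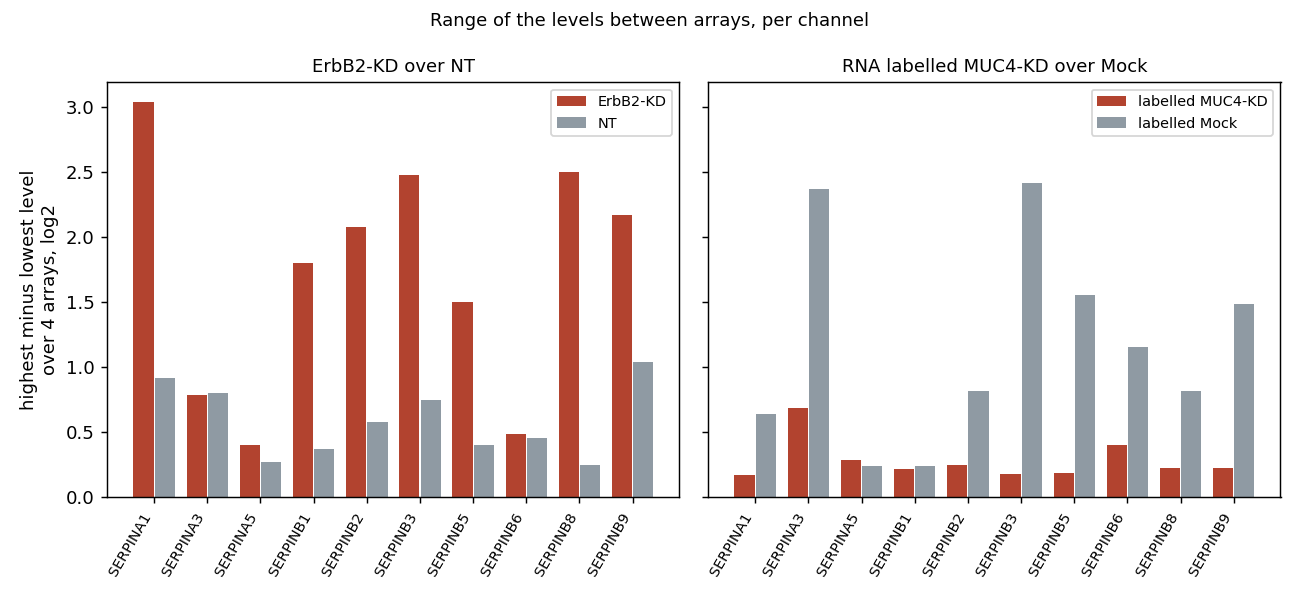
Highest minus lowest normalised log2 level over 4 arrays (vertical axis, from 0) for each serpin in the knockdown and the control channel. The bar of the ErbB2-KD channel is the taller for 9 of 10 serpins on the left, and the bar of labelled Mock for 9 of 10 on the right.

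The 2 experiments were then set side by side. Each has its own control pool. Of the 7 members tested in both, SERPINA3 alone was called in the difference between the 2 mean ratios, at -4.62 for ErbB2-KD minus labelled MUC4-KD, beside 10.8% of 22995 probes. It was also the only member with every ErbB2-KD array on one side of 0 and every MUC4 array on the other, a pattern seen in 5.74% of these probes. Both facts restate how SERPINA3 was chosen. SERPINB5 differed by -1.09, SERPINB8 by 1.42 and SERPINB2 by 0.52, and none of them was called. SERPINA1, with means of -0.54 and -0.63, and SERPINB6, with -0.48 and -0.37, had nearly the same mean in both experiments. Since the MUC4 probes go against the labels, the difference was also taken with the sign of the MUC4 ratios turned, an alternative chosen after seeing the data. It was then 0.01 for SERPINA3, which was not called, and SERPINB5 at 2.21 and SERPINB2 at 1.97 were called in its place, beside 18.3% of the same probes. SERPINA1 then differed by -1.17 and SERPINB6 by -0.86, without a call. Which member stands out in the difference therefore depends on the direction of the MUC4 ratios.

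**Figure D4:**
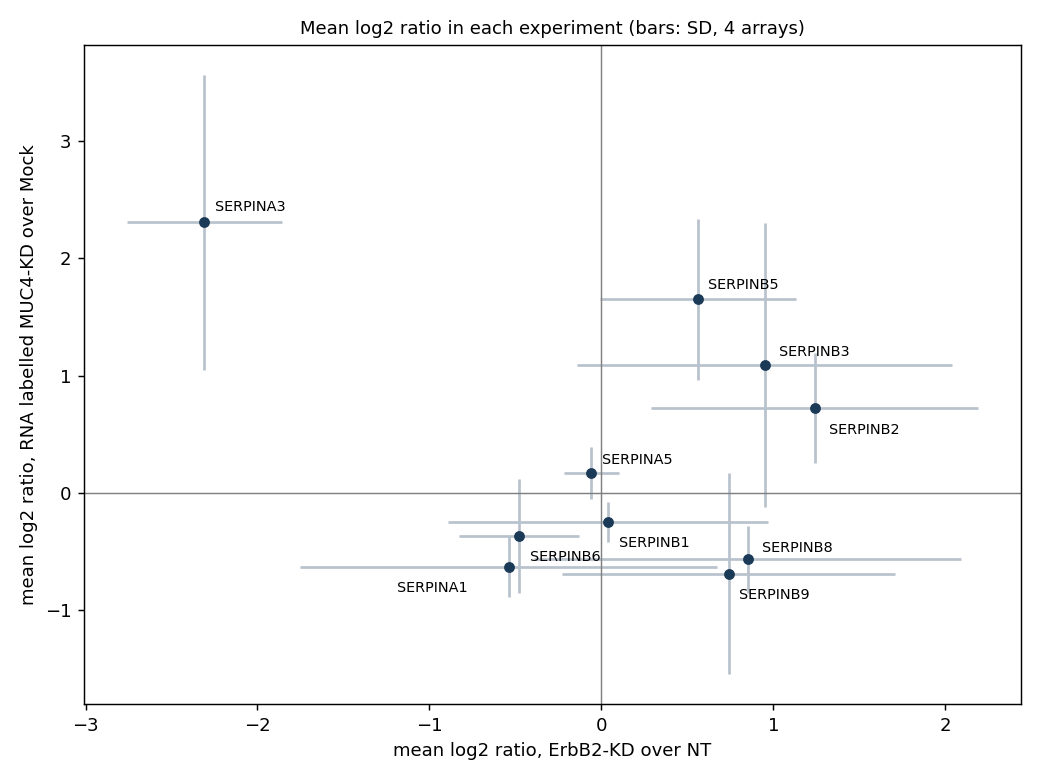
Mean log2 ratio of each serpin in ErbB2-KD over NT (horizontal axis) and in RNA labelled MUC4-KD over Mock (vertical axis), with SD over 4 arrays as bars. SERPINA3 stands alone at -2.31 and 2.31, whereas SERPINB2, SERPINB3 and SERPINB5 have means above 0 in both. The vertical direction is as labelled.

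Other genes around the serpins were read from lists, whose counts stand beside the 1.48% of all probes called in ErbB2-KD (0.563% higher, 0.920% lower) and the 20.5% in labelled MUC4-KD (12.0% higher, 8.50% lower). With each array centred on its median in place of loess, 0 genes of any list were called in either experiment. Of the other serpins, 24 of 25 were on the array and 7 were tested in ErbB2-KD, where limma called 0, also 0 at an unadjusted p under 0.05, while 9 were tested in labelled MUC4-KD, where 1 was called higher and 2 lower (median log2 ratio -0.22, beside 0.01 over all probes tested). SERPINB7, a neighbour of SERPINB2 and SERPINB3 on chromosome 18, rose in labelled MUC4-KD, at 2.28, 1.93, 2.43 and 0.28 (mean 1.73 ± 0.99, SD, n = 4, limma adjusted p = 0.028), and was well above background in labelled Mock on 3 of 4 arrays. SERPINE2, an inhibitor of thrombin and urokinase, fell (mean -0.77 ± 0.46, SD, n = 4, limma adjusted p = 0.0398), and so did SERPINH1, a collagen chaperone (mean -0.45 ± 0.11, SD, n = 4, limma adjusted p = 0.0365). All 3 calls were lost, with 0 called, when array 1, 2 or 3 was left out. Without a filter on dim probes 1 gene of this list was called, and with Feature Extraction's ratios 6.

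Proteases that clade A and B serpins are known to act on were called in labelled MUC4-KD for 2 of 13 tested, both higher, beside 12.0% of all probes. PLAT, tissue plasminogen activator, gave 1.29, 1.68, 1.43 and 1.39 (mean 1.45 ± 0.16, SD, n = 4, limma adjusted p = 0.00311). CTSV, a lysosomal cysteine protease, gave 1.23, 1.43, 0.92 and 1.23 (mean 1.20 ± 0.21, SD, n = 4, limma adjusted p = 0.00545). In ErbB2-KD limma called 0 of 11, with 3 at an unadjusted p under 0.05 and 1 called without array 2. Of the other protease inhibitors of epithelia, limma called 0 of 13 in ErbB2-KD, with 4 at an unadjusted p under 0.05, all higher, beside 7.48% of all probes (median 0.36, beside -0.01 over all probes tested; 2 were called without array 2), and 1 of 16 higher and 1 lower in labelled MUC4-KD. SLPI, the secretory leukocyte protease inhibitor, fell there, at -1.80, -0.93, -2.14 and -1.91 (mean -1.70 ± 0.53, SD, n = 4, limma adjusted p = 0.00831), and TIMP3, a metalloproteinase inhibitor, was called higher (mean 0.85 ± 0.54, SD, n = 4, limma adjusted p = 0.0418). TIMP3 was well above background in labelled Mock on 2 of 4 arrays and passed the filter only through labelled MUC4-KD, where it was high, so its ratio is uncertain. The count of 2 calls went to 1 without a filter on dim probes, to 1 without array 1 or 2, to 0 without array 3 and came to 4 without array 4.

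Acute phase and STAT3 response genes, the group that SERPINA3 is usually counted with, were called higher in labelled MUC4-KD for 5 of 15 tested, beside 12.0% of all probes, and lower for 0 (median 0.32, beside 0.01 over all probes tested). Leaving out array 1, 2 or 3 left 1, 2 and 0 calls, and 6 were called without array 4. Without a filter on dim probes 2 were called. The called genes were the serum amyloids SAA1, SAA2 and SAA4, the orosomucoid ORM1 and the kinase gene PIM1, and ORM1 was well above background in labelled Mock on 3 of 4 arrays. SAA2 gave 2.56, 1.61, 2.46 and 1.10 (mean 1.93 ± 0.70, SD, n = 4, limma adjusted p = 0.0107) and SAA1 2.47, 1.24, 2.37 and 0.71 (mean 1.70 ± 0.86, SD, n = 4, limma adjusted p = 0.0221). SAA1 and SAA2 are near-identical, and their probes may not tell them apart. SAA4 averaged 1.39 ± 0.76 (SD, n = 4, limma adjusted p = 0.0266). In ErbB2-KD 1 of 15 was called, CEBPD, a transcription factor of the acute phase response, which fell at -1.26, -1.13, -1.59 and -1.54 (mean -1.38 ± 0.22, SD, n = 4, limma adjusted p = 0.0172). That count was 0 without array 1, 3 or 4, 5 without array 2 and 2 with Feature Extraction's ratios. At an unadjusted p under 0.05 limma gave 2 of the list higher and 2 lower in ErbB2-KD, beside 7.48% and 10.6% of all probes. The list median was 0.04, beside -0.01 over all probes tested. SAA1, SAA2 and SAA4 had means of 0.53, 0.92 and 1.19 in ErbB2-KD, each higher on 3 of 4 arrays and not called. Complement C3, named after its values were seen, went the other way from SERPINA3 in ErbB2-KD, at 3.79, 0.82, 4.42 and 3.80, and did not pass (mean 3.21 ± 1.62, SD, n = 4, limma adjusted p = 0.0643). Of the squamous differentiation genes, limma called 0 of 5 in ErbB2-KD (1 at an unadjusted p under 0.05, and 1 called without array 2) and 1 of 6 in labelled MUC4-KD, KRT16, a keratin of activated squamous epithelium, which fell (mean -1.23 ± 0.49, SD, n = 4, limma adjusted p = 0.0159), a call lost without array 1, 2 or 3. Without array 4, or with Feature Extraction's ratios, 2 were called.

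The genes whose pattern was most like that of SERPINA3 were sought by Pearson's r over the 8 log2 ratios, among 176 probes with a mean of at least 1 in size in each experiment. They were ANKRD2 (r = 0.99), RTL6 (r = 0.99), CCL2 (r = 0.98), SEMA3C (r = 0.97) and PDGFB (r = 0.96). All 5 had a mean below 0 in ErbB2-KD, from -4.56 for RTL6 to -1.08 for PDGFB, and above 0 in labelled MUC4-KD, from 1.19 for ANKRD2 to 3.54 for CCL2. CCL2 is a chemokine that attracts monocytes, SEMA3C a secreted guidance protein and PDGFB a growth factor chain. The 8 arrays form 2 groups and each group shares a control pool, so such values of r mostly record the gap between the groups. With the sign of the MUC4 ratios turned, r was 0.94 for ANKRD2, 0.71 for CCL2, 0.65 for SEMA3C and 0.62 for PDGFB, and these were the first 4. RTL6 then came at place 8 through another of its probes (r = 0.53, means of -2.53 in ErbB2-KD and 1.15 in labelled MUC4-KD, as labelled).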

How the data were processed

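RNA of CAPAN-2 clones was linearly amplified to cRNA, which was labelled with Cy3 and Cy5 and hybridised in pairs on 8 Agilent arrays on 3 slides. The authors scanned them and deposited Feature Extraction output (version 10.5 in the submitters' processing notes, 10.5.1.1 per the file headers), with the median spot and background intensity of each channel and a log10 ratio of Cy5 over Cy3 after the software's own background subtraction and dye normalization. The deposited table of log10 ratios equals these values turned to labelled knockdown over control, within 5e-06. The design had named mean intensities and the files hold medians. The members and gene lists were chosen with earlier results of these data known. No per-sample column was left unmapped (0).

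In R 4.3.3 with limma 3.58.1, intensities were corrected by normexp with offset 50 and normalized by loess within each array, with control and outlier spots at weight 0. Spots of a probe were averaged, and ratios were turned to labelled knockdown over control on the log2 scale. Levels are loess-normalized channels after Aquantile scaling between arrays. On a single channel 56.6% to 74.1% of probes were well above background, and no spot was saturated. A probe was tested if well above background on all 4 arrays in 1 RNA, which held for 58.1% of 41000 probes in the ErbB2 experiment and 61.0% in the MUC4 experiment. lmFit and eBayes tested, separately for both experiments, whether the mean ratio differs from 0, and also the difference over 8 arrays, with Benjamini-Hochberg adjustment over all probes tested and a threshold of 0.05. The ratio against a pool leaves out the spread between control clones, and the number of arrays limits the precision. Symbols came from RefSeq through the probe accession for 25398 probes. A gene's value is that of its brightest probe over 8 arrays. Genes named were all members, ERBB2 and MUC4, the 3 genes with the largest mean ratio among those called in each list and experiment, and the 5 most like SERPINA3. C3, SERPINB4, ORM1, PIM1 and CD14 fall outside this rule and were named after their values were seen. Replicate numbers did not pair the arrays: deviations of same-numbered arrays correlated at -0.22 to -0.03. The steps were tested on simulated data. Alternatives were offset 10, Feature Extraction's ratios, median centring, other filters, a dye term, the slide as a random block, an intensity trend, 1 fit over 8 arrays, the methods' t-test, probe means, averaged arrays, a replicate block, the MUC4 ratios turned and leaving out each array.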

Additional observations from a re-analysis of the deposited data

Results flagged for a closer look

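SERPINB3 on array 2 of the MUC4 experiment stood apart from the other 3 arrays, with a log2 ratio of 2.90. Of 20 groups of 4 ratios examined for the members, 1 was set apart in this way. With 20 groups examined, chance alone can set 1 apart, and whether this one is chance was not tested. The level of labelled Mock was 6.62 on that array.

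The mean ratio of SERPINA3 was -4.62 apart between ErbB2-KD and the RNA labelled MUC4-KD, with all arrays of one experiment below 0 and all of the other above it. This is the pattern for which the gene was chosen, so its call in the difference is a description and not a test of it. With the MUC4 ratios turned the difference was 0.01.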

How the results depend on the processing

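No called ratio of a member changed sign under any alternative run, apart from the MUC4 ratios turned by construction. Of 166 alternative values of the members' mean ratios, 154 moved by less than 1 SD between arrays and 12 by more, 10 of these with Feature Extraction's log ratios, which spread dim probes further. The count of members called was less stable. In ErbB2-KD, where 1 was called, no filter on dim probes and the methods' t-test each gave 0, and leaving out 1 array gave 0 to 1. In labelled MUC4-KD, where 5 were called, median centring gave 0, the methods' t-test 0, no filter 2, 1 fit over 8 arrays 2, that fit with the slide as a random block 2, arrays 1 and 3 and arrays 2 and 4 averaged 2, and arrays 1 and 3 averaged 0; leaving out 1 array gave 0 to 5, with 5 only without array 4. In the difference, where 1 was called, Feature Extraction's ratios gave 2 (SERPINA3 and SERPINB5), the MUC4 ratios turned gave 2 (SERPINB2 and SERPINB5, without SERPINA3), leaving out 1 array gave 1 to 2, and the replicate block gave 1 member and 783 probes in place of 2472. SERPINA3 was called in 9 of 11 processing alternatives in ErbB2-KD and 8 of 13 in labelled MUC4-KD, and SERPINB5 in 10 of 13 in the latter. Over all probes, limma called 353 in ErbB2-KD and 31 with median centring, 0 without array 1 (3855 at an unadjusted p under 0.05), 4 without array 3 and 1121 with 1 fit over 8 arrays. In labelled MUC4-KD it called 5132, 1 with median centring (2170 at an unadjusted p under 0.05), 155 without array 3 and 9335 without array 4. The cause was not tested. The averaging of arrays 1 and 3 alone, the turned MUC4 ratios and the slide block over 8 arrays were chosen after seeing the data, and a slide block within 1 experiment could not be fitted. Probes near background in 1 RNA, as for SERPINB3 and SERPINB9, limit those ratios.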
